A study of Mus musculus with 10 samples.

Results

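The 10 genes described here act in the uptake of lipid by scavenger receptors and in the storage and efflux of cholesterol. They are the uptake receptor genes Msr1, Olr1, Cd36 and Scarb1, the nuclear receptor gene Nr1h3, the efflux transporter genes Abca1 and Abcg1, the storage genes Soat1 and Plin2, and the lipid transfer gene Pltp. They were chosen by name, with earlier results of these data known. A probe was taken where its gene name in the scanner files, or the current symbol of its accession, was one of the 10. This gave 16 of the 41174 probes and 10 of the 27670 genes measured, and Plin2 stood in the files under its older name Adfp. Msr1 had 3 probes, Cd36 had 2, Soat1 had 4 and the other 7 genes had 1 each.

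All mice were female BALB/c, an inbred laboratory strain, and were obtained when 6 to 8 weeks of age. For 8 weeks, 5 of them breathed room air, and the other 5 breathed mainstream smoke of 12 cigarettes in sessions of 50 minutes, held 2 times per day on 5 days per week. Each lung was measured on its own Agilent whole-genome array, against a reference RNA, and the comparison asks how smoke exposure altered lung gene expression. Values are log2 ratios of the red signal (lung) over the green signal (reference), normalized within each array, so that a difference of 1 is a fold of 2.

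The red channel was well above background for 67.8% to 76.7% of spots on the room air arrays and 64.9% to 77.5% on the smoke arrays. Although the sample labels name 1 dye, each scanner file holds both colours. The lung gene Ager was 4.83 log2 units brighter in red than in green on average over the 10 arrays. In green, 10 of 10 arrays had the Y chromosome gene Ddx3y well above background, and in red 2 of 10 did. Red was therefore read as the RNA of these female lungs. All 16 probes of the 10 genes were well above background in red on all 10 arrays, and 0 were saturated.

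As background, macrophages take up modified lipoproteins, cell debris and spent surfactant through scavenger receptors. The cholesterol that enters is esterified and kept in lipid droplets, or it leaves through ABC transporters, whose genes are switched on by liver X receptors when oxysterols bind them. In the lung, alveolar macrophages clear surfactant lipid, and lipid-filled macrophages are a known feature of smokers' airspaces.

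Of the 10 genes, 8 passed an adjusted p of 0.05 in limma between smoke and room air, whereas 8.22% of all genes did. Msr1, Olr1, Abca1, Abcg1, Soat1 and Plin2 rose, 6 of 10 against 4.95% of all genes, and Cd36 and Pltp fell, 2 of 10 against 3.27% of all genes. The 5 smoke arrays did not overlap the 5 room air arrays for 7 of the 10 genes, and for 7.88% of all genes. By probe, 12 of 16 passed, 9 higher and 3 lower, against 7.06% of all probes tested. Among the 28539 probes well above background in red on at least 5 arrays, 2992 passed. The 10 genes were chosen with earlier results known, so these counts describe them and are not a test against all genes. The median log2 difference was 0.602 over the 10 genes and -0.0042 over all genes. Fewer cells of a type and less RNA per cell cannot be told apart in whole lungs.

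Every direction given here rests on the group named for each scanner file and on red as the lung channel. In the deposited table of log2 values, each of the 286449 values matched, to a tolerance of 0.0001, the same-numbered array of the other group, and 286 matched the array they were named for. The column medians of that table were 8.03, 7.86, 7.34, 8.03 and 7.84 for room air 1 to 5 and 7.96, 8.06, 7.81, 7.66 and 7.88 for smoke 1 to 5. That table holds the mean log2 signal of both channels and not their ratio, and it was compared as deposited. Read by its own column names, it turned the direction of all 8 genes and 0 of them passed. Its sizes and calls therefore do not compare with those of the log2 ratios.

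The 10 arrays lay on 5 slides, each with the smoke and the room air array of 1 replicate number, and smoke had the same place on every slide, so place and group cannot be told apart. With the slide as a block, the same 8 genes passed, with the highest adjusted p = 0.0108 for Pltp. Over all probes, 2906 passed without a block (1793 higher, 1113 lower) and 5019 with it, and median centring in place of loess gave 687 higher and 747 lower. The methods of the study name a Wilcoxon test without its form. In the exact two-sided form used here, 0 probes passed after adjustment, 5446 had an unadjusted p under 0.05 (7479 in limma), and the smallest exact p that 5 against 5 arrays allow is 0.00794.

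**Figure D1:**
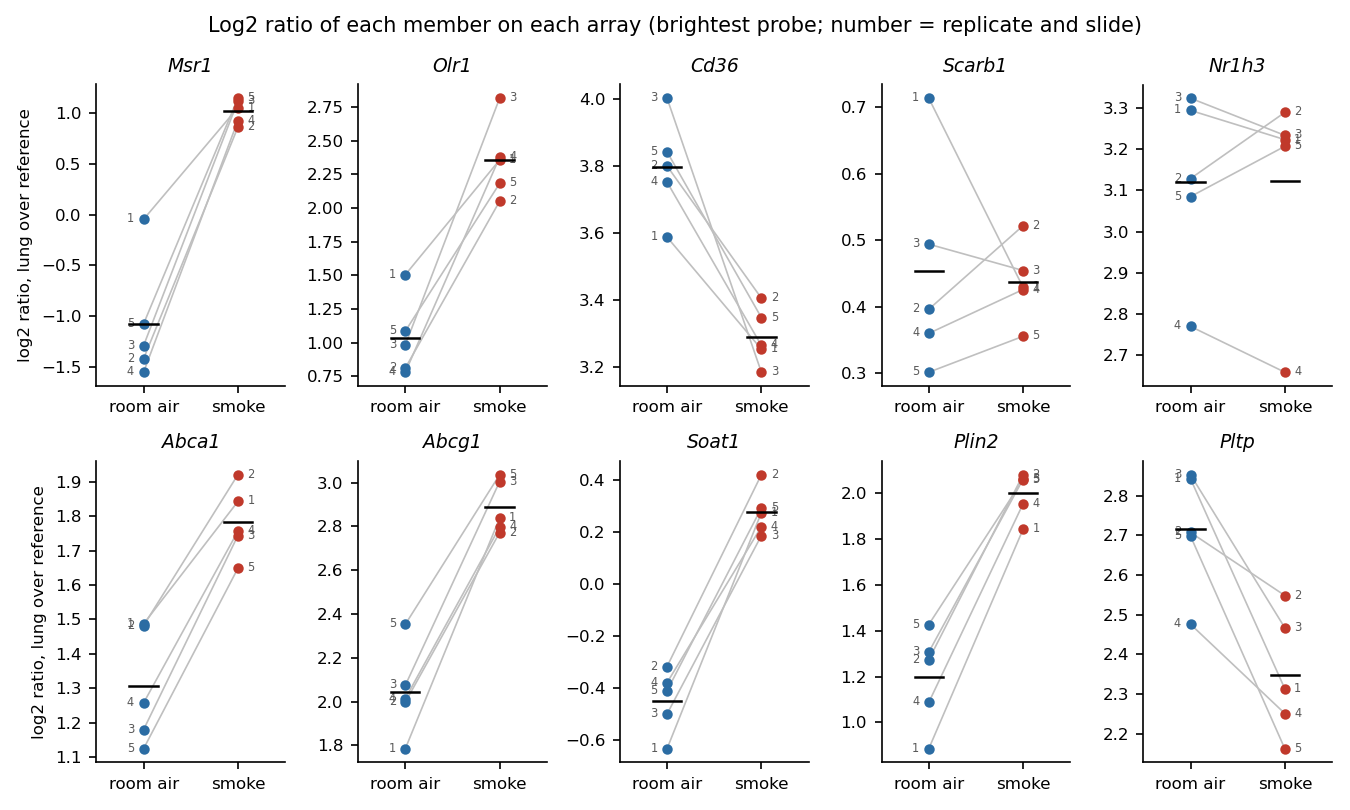
Log2 ratio of lung over reference for the brightest probe of each of the 10 genes on each array, with room air in blue, smoke in red, a grey line joining the arrays of a slide, a black bar at the group mean and the replicate number beside each point. Smoke lies above room air on 5 of 5 slides for Msr1, Olr1, Abca1, Abcg1, Soat1 and Plin2. It lies below room air on 5 of 5 slides for Cd36 and Pltp. All 8 directions turn with the deposited log2 table, which holds a mean of both channels and not a ratio.

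Promoter sequence shows which response elements lie close to the starts of these genes. RefSeq promoter windows of build GRCm38.p6, from 250 bases before to 50 after the start, were held for 7 of the 10 genes: Cd36, Olr1, Abca1, Nr1h3, Soat1, Plin2 and Pltp. Both strands were searched for 2 copies of AGGTCA spaced by 4 bases, the liver X receptor type, and spaced by 1 base, the PPAR type, with at most 2 mismatches in the 12 fixed bases. The repeat spaced by 4 was in 0 of the 7 genes and in 3.02% of all 32851 windows. The repeat spaced by 1 was in Plin2 and Cd36, and in 3.86% of all windows. The antioxidant response core TGACNNNGC was in Soat1 and in 12.4% of all windows, and the dioxin response core GCGTG was in Soat1, Plin2 and Pltp and in 32.4% of all windows. A match is a stretch of letters and not a measured binding site.

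The 250 bases before the start are printed for 4 genes that passed, 1 that fell and 3 that rose, 5′ to 3′ on the strand of the gene. Capitals mark the match named for each gene, and the dioxin response cores of Plin2 (-86 to -82) and Soat1 (-66 to -62) are not in capitals. Abca1 (chr4:53159896-53160145, minus strand, GRCm38.p6) shows its nearest repeat spaced by 4, at positions -67 to -52 with 3 mismatches; this looser limit was chosen after the letters were seen, and 21.9% of all windows meet it. Plin2 (chr4:86670060-86670309, minus strand) shows the repeat spaced by 1 at -225 to -213, on the opposite strand. Cd36 (chr5:17835897-17836146, minus strand) shows a repeat of the same kind at -63 to -51, also on the opposite strand. Soat1 (chr1:156474329-156474578, minus strand) shows the antioxidant response core at -166 to -158, and a second copy lay after the start, at 4 to 12.
Abca1: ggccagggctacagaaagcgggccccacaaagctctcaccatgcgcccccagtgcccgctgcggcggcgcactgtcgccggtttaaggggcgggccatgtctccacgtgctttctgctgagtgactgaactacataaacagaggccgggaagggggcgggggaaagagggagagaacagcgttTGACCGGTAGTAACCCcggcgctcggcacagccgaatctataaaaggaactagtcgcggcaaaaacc
Plin2: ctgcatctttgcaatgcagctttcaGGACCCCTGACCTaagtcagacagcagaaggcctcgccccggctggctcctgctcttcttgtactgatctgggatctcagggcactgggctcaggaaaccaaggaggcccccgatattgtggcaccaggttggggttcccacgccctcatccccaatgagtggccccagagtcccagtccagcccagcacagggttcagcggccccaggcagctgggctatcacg
Cd36: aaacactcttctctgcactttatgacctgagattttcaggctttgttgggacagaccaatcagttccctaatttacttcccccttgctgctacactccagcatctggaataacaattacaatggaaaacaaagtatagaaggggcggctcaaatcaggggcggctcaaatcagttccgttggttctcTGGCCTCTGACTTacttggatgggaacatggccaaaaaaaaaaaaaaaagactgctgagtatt
Soat1: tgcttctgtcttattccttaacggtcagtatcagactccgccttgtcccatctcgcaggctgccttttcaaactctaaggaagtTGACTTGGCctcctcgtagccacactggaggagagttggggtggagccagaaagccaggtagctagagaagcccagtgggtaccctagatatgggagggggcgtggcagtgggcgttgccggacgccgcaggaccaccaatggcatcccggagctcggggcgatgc

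Msr1, the class A scavenger receptor that binds modified lipoproteins and bacteria, had the widest difference of the 10 genes. Its brightest probe (A_51_P404846, chr8:38396605-38398766, mm7) had log2 ratios of -0.05, -1.42, -1.29, -1.56 and -1.08 on room air arrays 1 to 5 and 1.06, 0.86, 1.12, 0.93 and 1.15 on smoke arrays 1 to 5. The smoke lungs lay close together and all above the room air lungs, of which replicate 1 was far higher than the other 4. Msr1 rose 4.3-fold (log2 difference 2.10, SE 0.24, adjusted p = 0.000291), and the difference within a slide ran from 1.10 on slide 1 to 2.48 on slide 4. Over the alternatives run on the scanner files, the Msr1 difference ran from 1.82, the mean of its probes, to 2.81 with the scanner software ratio. With an offset of 10 it was 2.53. Both other Msr1 probes rose as well, A_52_P127130 by 1.54 (SE 0.17, adjusted p = 0.000225) and A_52_P607128 by 1.81 (SE 0.32, adjusted p = 0.00543). The last of these had 1.09 on room air array 1, where the other room air arrays had -1.04 to -0.54, and its difference on slide 1 was 0.41 against 1.75 to 2.60 on the other slides.

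Olr1 codes for the lectin-like receptor for oxidized low-density lipoprotein. Its probe (chr6:129508610-129508669, mm7) had log2 ratios of 1.50, 0.81, 0.98, 0.78 and 1.09 on room air arrays 1 to 5 and 2.36, 2.05, 2.82, 2.38 and 2.18 on smoke arrays 1 to 5. Each smoke array was above each room air array, and room air replicate 1 again had the highest value of its group. Olr1 rose 2.5-fold (log2 difference 1.32, SE 0.16, adjusted p = 0.000474; within slides 0.85 to 1.83). Its reference signal was dim, well above background in green on 6 of 10 arrays, and in the red signal alone the difference was 1.94 (SE 0.20, adjusted p = 0.000716). Msr1 and Olr1 were the 2 genes of the 10 with a fold over 2.

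Cd36, a class B scavenger receptor and fatty acid transporter of macrophages, capillary endothelium and fat cells, went the other way. On room air arrays 1 to 5 its log2 ratios were 3.59, 3.80, 4.00, 3.75 and 3.84, and on smoke arrays 1 to 5 they were 3.25, 3.41, 3.19, 3.27 and 3.35 (A_51_P375138, chr5:16796811-16799243, mm7). The groups did not overlap, and room air replicate 1 was the nearest of its group to the smoke lungs. Cd36 fell by -0.51 (SE 0.07, adjusted p = 0.00168), lower with smoke on 5 of 5 slides. A second probe fell by -0.55 (SE 0.13, adjusted p = 0.0265), also on 5 of 5 slides, with 1 overlap between groups: smoke replicate 2 at 3.97 lay above room air replicate 4 at 3.96. The call was lost with scaling between arrays after loess, at -0.34 and adjusted p = 0.387; over the alternatives run on the scanner files the adjusted p ran from 0.000297 to that value.

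Scarb1 codes for the class B receptor that takes cholesteryl ester from high-density lipoprotein. It did not pass, with log2 ratios of 0.30 to 0.71 on the room air arrays and 0.36 to 0.52 on the smoke arrays. The difference was -0.02 (SE 0.07, adjusted p = 0.959), with smoke higher on 3 slides and lower on 2. Room air replicate 1 had the highest value, 0.71, and without it the difference was 0.05.

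**Figure D2:**
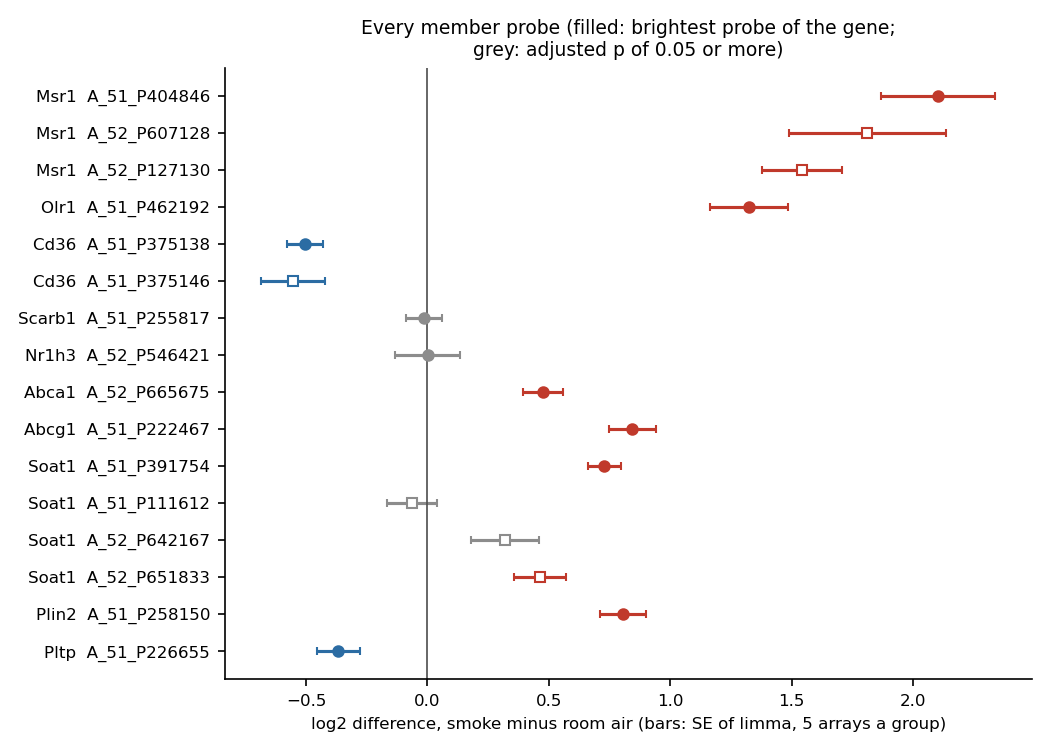
Log2 difference, smoke minus room air, for all 16 probes of the 10 genes, with bars of 1 SE; filled circles are the brightest probe of a gene, and red, blue and grey mark higher, lower and not past an adjusted p of 0.05. The 3 Msr1 probes lie between 1.54 and 2.10, both Cd36 probes near -0.5, and the 4 Soat1 probes spread from -0.06 to 0.73. By gene, the deposited log2 table, a mean of both channels and not a ratio, turns the direction of every gene but Nr1h3.

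Nr1h3 codes for liver X receptor alpha, the oxysterol-sensing nuclear receptor whose targets include both efflux transporters. Its log2 ratios were 3.29, 3.13, 3.32, 2.77 and 3.09 on room air arrays 1 to 5 and 3.22, 3.29, 3.23, 2.66 and 3.21 on smoke arrays 1 to 5 (chr2:91034994-91035053, mm7). The groups overlapped throughout, and the low values were those of replicate 4 in both groups, which share a slide. The difference was 0.002 (SE 0.13, adjusted p = 0.997), and within slides it ran from -0.11 to 0.16. Fitted with the slide as a block, the SE was 0.06 and the adjusted p = 0.989.

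Abca1, which passes cellular cholesterol to lipid-poor apolipoprotein A-I, had log2 ratios of 1.49, 1.48, 1.18, 1.26 and 1.12 on room air arrays 1 to 5 and 1.84, 1.92, 1.74, 1.76 and 1.65 on smoke arrays 1 to 5 (chr4:53044891-53044950, mm7). Replicates 1 and 2 were the highest in both groups and replicate 5 the lowest in both, yet no smoke array reached down to a room air array. Abca1 rose 1.39-fold (log2 difference 0.48, SE 0.08, adjusted p = 0.00472), and within slides by 0.36 to 0.56. With the slide as a block the SE was 0.05 and the adjusted p = 0.000676.

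Abcg1, which hands cholesterol to high-density lipoprotein and whose loss in mice fills alveolar macrophages with lipid, had log2 ratios of 1.78, 2.00, 2.07, 2.01 and 2.35 on room air arrays 1 to 5. On smoke arrays 1 to 5 the values were 2.84, 2.77, 3.00, 2.80 and 3.04 (chr17:29310847-29310906, mm7). All smoke lungs were above all room air lungs, and replicate 1 was the lowest of the room air lungs. Abcg1 rose 1.8-fold (log2 difference 0.84, SE 0.10, adjusted p = 0.000335; within slides 0.68 to 1.05).

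Soat1 codes for the enzyme that esterifies cholesterol for storage. The brightest of its 4 probes (A_51_P391754, chr1:156392448-156392507, mm7) had log2 ratios of -0.64, -0.32, -0.50, -0.38 and -0.41 on room air arrays 1 to 5 and 0.27, 0.42, 0.19, 0.22 and 0.29 on smoke arrays 1 to 5. A wide gap parted the groups, with room air replicate 1 the lowest of all. Soat1 rose 1.66-fold by this probe (log2 difference 0.73, SE 0.07, adjusted p = 8.19e-05; within slides 0.60 to 0.91).

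The other Soat1 probes gave smaller values. A_52_P651833 rose by 0.46 (SE 0.11, adjusted p = 0.0235) and A_52_P642167 differed by 0.32 (SE 0.14, adjusted p = 0.255), higher with smoke on 5 of 5 slides each. A_51_P111612 is named Soat1 in the files but placed on another chromosome, at chr7:64592747-64592806 (mm7), and differed by -0.06 (SE 0.10, adjusted p = 0.858). The mean of all 4 probes gave 0.36, and the mean of the 3 on chromosome 1, a choice made after seeing the data, gave 0.50; both passed.

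Plin2 codes for the protein that coats lipid droplets. Its log2 ratios were 0.89, 1.27, 1.31, 1.09 and 1.43 on room air arrays 1 to 5 and 1.84, 2.08, 2.06, 1.95 and 2.06 on smoke arrays 1 to 5 (chr4:86060498-86060557, mm7). The groups were well apart, and replicate 1 was the lowest in each. Plin2 rose 1.75-fold (log2 difference 0.80, SE 0.10, adjusted p = 0.000434; within slides 0.63 to 0.96). This is the gene whose promoter stretch above carries a repeat spaced by 1, as does that of Cd36, which fell.

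Pltp, which moves phospholipid between lipoproteins, had log2 ratios of 2.84, 2.71, 2.85, 2.48 and 2.70 on room air arrays 1 to 5 and 2.31, 2.55, 2.47, 2.25 and 2.16 on smoke arrays 1 to 5 (chr2:164581164-164585120, mm7). The groups overlapped through room air replicate 4, whose slide partner was the next to lowest of the smoke lungs. Pltp fell by -0.37 (SE 0.09, adjusted p = 0.0309), lower with smoke on 5 of 5 slides (-0.54 to -0.16). This call was the least firm of the 8: it held in 3 of 10 fits with 1 array left out (room air 4, smoke 2 or smoke 3), and the adjusted p over the 10 fits ran from 0.0124 to 0.0796. It was also lost with scaling between arrays (-0.25, adjusted p = 0.257), an offset of 10 (-0.36, adjusted p = 0.0673) and red alone (-0.44, adjusted p = 0.111), whereas the slide block kept it (adjusted p = 0.0108).

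The room air lungs did not vary as one across the 10 genes. Room air replicate 1 had the highest value of its group for Msr1, Olr1, Scarb1 and Abca1, and the lowest for Cd36, Abcg1, Soat1 and Plin2. The neutrophil markers stood apart in the same lung: their summed red signal, in units of the 75th percentile of the array, was 184 there and 28.1 to 46.7 in the other room air lungs. On smoke arrays 1 to 5 it was 87.3, 65.1, 47.6, 55.2 and 63.8, above those other 4 room air lungs and higher than room air on 4 of 5 slides. The part of neutrophils in the Msr1 value of that lung, or in the genes that rose, was not tested. Without that array, 7 of the 10 genes passed: Msr1 differed by 2.36 and Olr1 by 1.44, and Pltp was lost (-0.34, adjusted p = 0.0506).

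Each channel was also compared alone, scaled to the 75th percentile of its array, with the green comparison chosen after seeing the data. In red, 7 of the 10 genes passed, all of the 8 but Pltp, with differences of 2.73 for Msr1, 1.94 for Olr1, 0.86 for Plin2, 0.82 for Abcg1, 0.72 for Soat1, 0.54 for Abca1 and -0.56 for Cd36. In green, which holds the reference RNA, 0 of the 16 probes passed (adjusted p = 1 for each). The green differences lay between -0.15 and 0.09, except for Olr1 at 0.51 (SE 0.36).

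**Figure D3:**
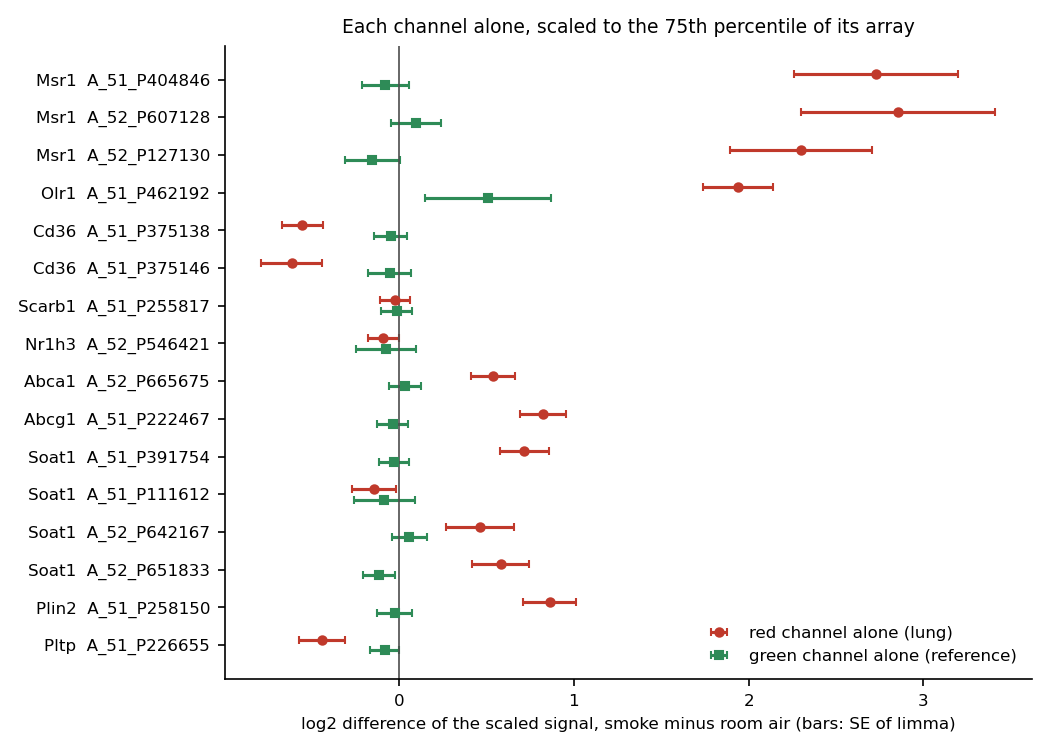
Log2 difference of the scaled signal, smoke minus room air, for the 16 probes in the red channel alone (circles) and in the green channel alone (squares), with bars of 1 SE. Red differences reach 2.86 for Msr1 while green differences stay between -0.15 and 0.51.

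Other genes of the same pathways were read from 5 lists with 85 genes, all measured. Of these 17 rose and 2 fell, where 4.95% of all genes rose and 3.27% fell. These lists too were chosen with earlier results known, so the counts only describe them. With the slide as a block 20 rose and 5 fell, and with median centring 8 rose and 4 fell. Of 18 further scavenger receptors, 6 rose and 0 fell (median 0.09). Trem2, a lipid-sensing receptor, rose by 3.03 (SE 0.08, adjusted p = 3.45e-09), and Marco, the collagenous relative of Msr1, by 2.60 (SE 0.41, adjusted p = 0.00248). Cd68 rose by 2.06, Clec7a by 1.64, the mannose receptor Mrc1 by 1.14 and the lysosomal Scarb2 by 0.36. All 6 were without overlap between the groups.

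Of 13 genes of lipoprotein receptors and lysosomal cholesterol, 4 rose and 0 fell (median 0.16), against 4.95% and 3.27% of all genes. Lpl, lipoprotein lipase, rose by 0.95 (SE 0.08, adjusted p = 6.26e-05), and Lipa, the lysosomal acid lipase that frees cholesterol from its esters, by 0.63 (SE 0.10, adjusted p = 0.00361). Npc2, which carries cholesterol out of lysosomes, rose by 0.32 and Lrp1 by 0.38 (adjusted p = 0.033). Lrp1 passed in 4 of 10 fits with 1 array left out, and was lost without room air 3 or 5 or without smoke 1, 2, 3 or 4 (0.33 to 0.39, highest adjusted p = 0.084).

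Of 18 efflux and apolipoprotein genes other than the members, 2 rose and 0 fell (median 0.02). With 4.95% of all genes higher, so small a count describes those 2 genes and not the list. Both code for enzymes that make or break down oxysterols. Ch25h, cholesterol 25-hydroxylase, had 4.51 on room air array 1 and 0.24 to 0.53 on the other room air arrays, against a smoke mean of 4.69 (SD 0.18). It rose by 3.45 (SE 0.70, adjusted p = 0.0113), or by 4.27 without room air replicate 1. Cyp7b1, an oxysterol hydroxylase, rose by 0.90 (SE 0.24, adjusted p = 0.0448), and also had 1 high room air lung, replicate 1 at 4.50. Of the fits with 1 array left out, Cyp7b1 passed in the one without room air replicate 1 (1.17); in the other 9 it gave 0.81 to 0.94 with an adjusted p of up to 0.111. Among the genes not past the threshold, Apoc2 differed by 0.36 (adjusted p = 0.617). Apoa2 was well above background in red on 3 room air arrays and 1 smoke array and in green on 0 of 10, so no difference is given for it.

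Of 16 nuclear receptors and partners, 2 rose and 0 fell (median -0.01), again too few beside the 4.95% of all genes to describe the list. Pparg, the fatty acid receptor that alveolar macrophages need to mature, rose by 0.78 (SE 0.04, adjusted p = 1.76e-06), and the coactivator Ppargc1b by 0.40 (SE 0.08, adjusted p = 0.00895). Srebf2, which drives cholesterol synthesis genes, differed by -0.34 (adjusted p = 0.159), and Ppargc1a by -0.27 (adjusted p = 0.0649).

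Of 20 genes of lipid droplets, ester synthesis and hydrolysis, 3 rose and 2 fell (median 0.05), against 4.95% and 3.27% of all genes. Cidea rose by 0.82 (SE 0.22, adjusted p = 0.0484), the acyl-CoA synthetase gene Acsl1 by 0.38 and the droplet coat gene Plin3 by 0.37. Cidec, a droplet fusion protein of fat cells, fell by -1.02 (SE 0.20, adjusted p = 0.0105), and Hilpda, a droplet protein that inhibits lipolysis, by -0.93 (SE 0.10, adjusted p = 0.000266). Cidea passed in 1 of 10 fits with an array left out, that without room air replicate 1 (1.00); the other 9 gave 0.70 to 0.90, with an adjusted p of up to 0.118.

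**Figure D4:**
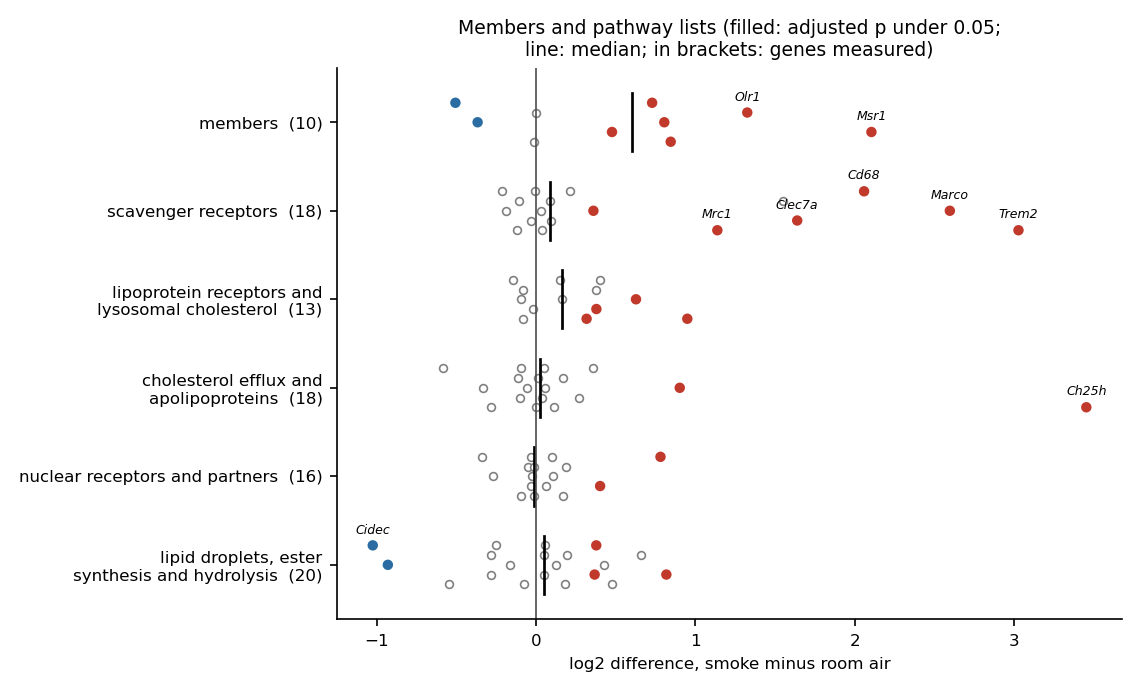
Log2 difference, smoke minus room air, for the 10 genes and for the 85 genes of the 5 pathway lists, with filled points past an adjusted p of 0.05 (red higher, blue lower), open points not past it, spread vertically only to part them, and a black line at each median. The medians of the 5 lists lie between -0.01 and 0.16 and that of the 10 genes at 0.60; with median centring 12 of the 85 pass, 8 higher and 4 lower.

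Most of the macrophage markers were higher with smoke. Of 13 measured markers (Ear2 was not measured), 9 rose and 0 fell, with a median of 1.14, where 4.95% of all genes rose. All 13 were well above background in red on all 10 arrays. Chil3 rose by 2.12, Cd68 by 2.06 and Ctss by 1.44, and Cd68 and Mrc1 also stand in the scavenger receptor list. Lyz2, the most abundant in red, differed by 0.18 (adjusted p = 0.705). Siglecf (0.25, adjusted p = 0.312), Krt79 (0.35, adjusted p = 0.291) and Mertk (-0.22, adjusted p = 0.211) did not pass either. The summed red signal of the list, in units of the 75th percentile, was 675, 864, 646, 699 and 882 on room air arrays 1 to 5. On smoke arrays 1 to 5 it was 950, 1330, 1030, 752 and 1330, with smoke replicate 4 within the room air range. The mean log2 ratio over the list was 1.75 to 1.83 on the room air arrays and 2.67 to 2.80 on the smoke arrays. The part of macrophage number in the values of the 10 genes was not tested.

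Other myeloid and lymphoid lists gave fewer changes. Beside 4.95% of all genes higher and 3.27% lower, such small counts describe the genes called and not the lists. Of 5 monocyte markers (Ly6c2 was not measured), Cx3cr1 rose (0.89, adjusted p = 0.0139); the most abundant, Nr4a1, differed by -0.26 and Ccr2 by 0.42. Of 11 neutrophil markers (Ly6g was not measured), Mmp8 and Camp rose, by 1.16 and 0.60, while S100a9, the most abundant, differed by 0.16 and S100a8 by 0.47. Of these, Mpo, Elane, Ngp and Camp were not well above background in red on all arrays. Mmp8 passed in 6 of 10 fits with 1 array left out (lost without room air 2, 3 or 5 or smoke 1, at 1.08 to 1.13). Of 7 T cell markers (Trac was not measured), Il7r rose (0.86, adjusted p = 0.00268), with Cd3d at 0.35 and Lck at 0.06. Of 6 B cell markers 0 passed, with Jchain at 0.49 and Cd79b at 0.32. By slide, the T cell list was higher with smoke on 5 of 5 in both summed red signal and mean log2 ratio. The B cell list was higher on 5 of 5 slides in the sum and 4 of 5 in the mean ratio. The monocyte list was higher on 1 of 5 and 4 of 5, and the neutrophil list on 4 of 5 in both. All of these overlapped between groups.

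Beside the falls of Cd36 and Pltp, the lists of other cells that carry lipid genes were read, where 3.27% of all genes fell. Of 13 endothelial markers, 2 fell, Ednrb by -0.78 (adjusted p = 0.0134) and Pecam1 by -0.41 (adjusted p = 0.0488), with the list's median at -0.14; Ramp2, the most abundant, differed by -0.14 and Cldn5 by -0.12. Pecam1 passed in 3 of 10 fits with 1 array left out (-0.47 to -0.33, highest adjusted p = 0.119) and was lost without room air 2, 3 or 5 or smoke 1, 2, 4 or 5. Their summed red signal was 351, 390, 389, 429 and 424 on room air arrays 1 to 5 and 280, 281, 266, 274 and 292 on smoke arrays 1 to 5, without overlap, whereas the mean log2 ratio over the list overlapped between groups (4.31 to 4.83 with room air, 3.94 to 4.55 with smoke) and was lower with smoke on 5 of 5 slides (-0.37 to -0.05). Of 8 adipocyte markers, Cidec alone passed, and it is the gene already given in the lipid droplet list. Cfd, the most abundant, differed by -0.20, and Lep and Adig were not well above background in red on all arrays. Cidec did not follow Cfd over the room air arrays. Cfd was lowest on room air array 5 (4.85), where Cidec had 4.83, and Cidec was lowest on room air array 4 (4.32). The summed red signal of the adipocyte list was 24.8, 17.9, 18.3, 19.8 and 11.8 on room air arrays 1 to 5 and 10.1, 11.4, 9.24, 9.18 and 15.4 on smoke arrays 1 to 5, and its mean log2 ratio was 1.81 to 2.61 with room air and 1.53 to 1.97 with smoke; both measures overlapped, and both were lower with smoke on 4 of 5 slides. The part of these cells in the values of Cd36 and Pltp was not tested.

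Among the epithelial and stromal lists, 0 of 9 alveolar type 2, 0 of 7 alveolar type 1, 0 of 6 ciliated and 0 of 6 club cell markers passed in limma. With 8.22% of all genes past the threshold, lists this short would hold few calls or none at that share. The summed red signal of the alveolar type 1 list also lay lower without overlap, at 246 to 290 with room air and 191 to 232 with smoke, as in the endothelial list. Its mean log2 ratio overlapped between groups (3.96 to 4.28 and 3.71 to 4.14) and was lower with smoke on 4 of 5 slides. Both measures of the alveolar type 2 and club cell lists were higher with smoke on 4 of 5 slides. Both measures of the fibroblast list were lower on 4 of 5. For the ciliated list the summed red signal was lower on 4 of 5 slides and the mean log2 ratio higher on 4 of 5. Sftpc differed by -0.13, a value that is not exact because its probe was saturated in red on 1 array. Sftpa1 differed by 0.09, Hopx by -0.06, Ager by 0.03, Tppp3 by -0.07, Tekt1 by 0.06, Cbr2 by 0.05 and Scgb1a1 by -0.20. Of 9 fibroblast markers 4 fell, against 3.27% of all genes. Among them were Pdgfra by -0.49 (adjusted p = 5.95e-05) and Dcn by -0.49 (adjusted p = 0.0107), while Col1a2 differed by 0.07 and Col3a1 by -0.01.

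**Figure D5:**
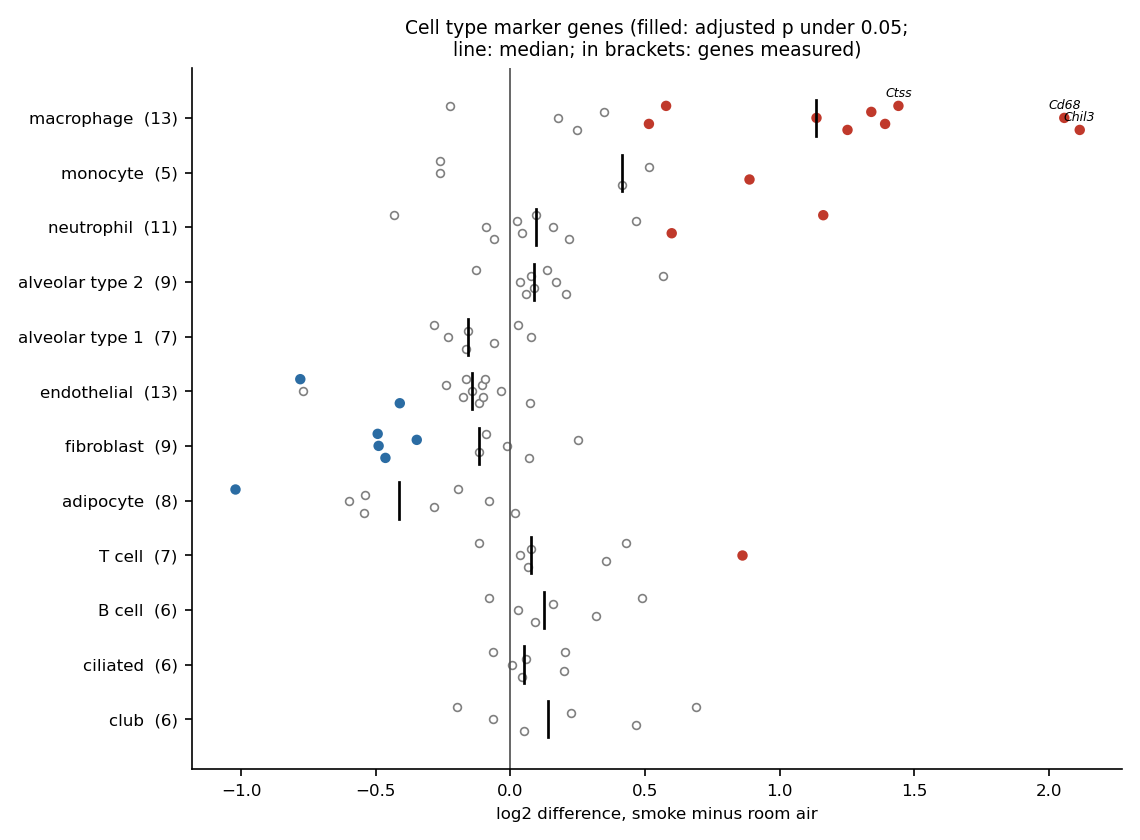
Log2 difference, smoke minus room air, for the genes of the 12 cell type marker lists, with filled points past an adjusted p of 0.05 (red higher, blue lower), open points not past it, spread vertically only to part them, and a black line at each median. The macrophage list has 9 of 13 genes past the threshold, all higher, with its median at 1.14.

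The genes most like Msr1 were sought among 14324 genes well above background in red on all 10 arrays, by Pearson's r over the 10 arrays. By the log2 ratio, which carries the group difference, they were Fcgr2b (0.994), Wfdc21, Pik3r5, Clec5a and Lgi2 (0.993 each), and these rose by 1.48, 2.78, 1.08, 2.18 and 1.42 (Wfdc21 was well above background in green on 4 of 10 arrays). By the deviation from the group mean, which leaves that difference out, they were Vav1 (0.992), Fyb (0.981), Clec4d (0.98), Samsn1 and Maff (0.979 each). Of the latter, Vav1 rose by 0.78 and Maff by 1.00 (adjusted p = 0.0231, held without room air 1, smoke 2 or smoke 4 and lost in the other 7 fits with 1 array left out, at up to adjusted p = 0.0628), while Fyb, Clec4d and Samsn1 had 0.33, 1.44 and 0.68 and did not pass. Room air replicate 1 was the highest of its group for Msr1. It lay far above the others for Fcgr2b, Wfdc21, Clec5a, Clec4d and Maff, the genes flagged for this below. Values of the other genes named here on that array are not given. Msr1 deviated most there (-0.05 against -1.56 to -1.08), so that array has the most weight in the ranking by deviation.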

How the data were processed

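The authors deposited scanner files with, for each spot, intensity in red and green, the local background and spot marks, from Agilent Feature Extraction 9.5.3.1 (the labels name version 9.1). The same deposited files hold a log10 ratio of processed red over green, used as an alternative. A further deposited table by the authors holds log2 values, the mean of both channels, and served as an alternative by its own column names.

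Mean intensities were background-corrected by normexp with an offset of 50, controls were removed, ratios were normalized by loess within arrays, outlier spots were set missing and replicate spots were averaged, with dim probes kept. The two-sided test was that of limma 3.58.1 (lmFit, then eBayes; R 4.3.3), and p was adjusted by Benjamini-Hochberg across every probe. A gene was represented by its brightest red probe. A fold is 2 raised to the log2 difference, and SE is that of limma.

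Arrays with the same replicate number share a slide. Their deviations from group means correlated across probes at 0.157 to 0.55 (median 0.46), against a highest of 0.205 between different numbers. Samples are therefore paired by slide, and an alternative took the slide as a block. Unless the block is named, calls, SE and adjusted p are from the fit that ignores this pairing. Marker counts are given from that fit alone.

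The members and lists were chosen with earlier results of these data known. Named are the members with every probe, up to 8 genes of each pathway list past the threshold (with 2 others where fewer than 3 passed), up to 4 of each marker list (the 2 most abundant in red and those past the threshold), and the 5 genes most like the member with the largest difference by each of 2 measures. The macrophage markers that did not pass are named as well. Precision is limited by the number of arrays. Promoter sequences are from RefSeq, build GRCm38.p6, and probe positions are those of the files, build mm7.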

Additional observations from a re-analysis of the deposited data

Results flagged for a closer look

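In 23 of 162 groups of 5 arrays (81 probes in 2 groups each), 1 array lay far from the other 4, and 14 of the 23 were in room air replicate 1. Fcgr2b, Wfdc21, Clec5a, Clec4d and Maff, 5 of these 14, had been chosen for following Msr1 over the arrays, so their values are not independent of its high value there. Without the 10 genes so chosen, 18 of 142 groups remained, where chance gives about 1 in 20, or 7.1 of the 142; genes of 1 array are not independent of each other. Of the 18, 9 were in room air replicate 1. Values are log2 ratios, with the range of the other 4 arrays after "against".

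Among the 10 genes, the Msr1 probe A_52_P607128 had 1.09 on room air array 1 against -1.04 to -0.54. Nr1h3 had 2.66 on smoke array 4 against 3.21 to 3.29, and the Soat1 probe placed on chromosome 7 had 2.43 on smoke array 2 against 1.89 to 1.99.

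On room air array 1, the highest value of the group was that of Ch25h (4.51 against 0.24 to 0.53), Cyp7b1 (4.50 against 3.03 to 3.22), Clec7a (3.04 against 2.14 to 2.36) and Scarb2 (0.98 against 0.80 to 0.84). The same array was highest for Ccr2 (3.22 against 1.84 to 2.07), S100a8 (4.39 against 1.49 to 2.09) and Mmp8 (2.31 against 0.99 to 1.14). It was highest for Fcgr2b (0.093 against -1.12 to -0.86), Wfdc21 (3.15 against 1.33 to 1.64), Clec5a (0.13 against -1.55 to -1.28), Clec4d (0.50 against -2.26 to -1.72) and Maff (0.008 against -1.43 to -1.23). It was lowest for Col3a1 (-2.16 against -1.35 to -1.10).

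On smoke array 4, Marco (4.97 against 5.92 to 6.13), Tppp3 (4.33 against 4.92 to 5.02) and Tekt1 (3.24 against 3.89 to 4.02) were lowest. Mrc1 was highest on smoke array 3 (5.15 against 4.28 to 4.43), Srebf2 lowest on smoke array 2 (-1.03 against -0.46 to -0.36), Acsl1 lowest on smoke array 5 (1.01 against 1.13 to 1.16) and Pdgfra highest on smoke array 5 (0.84 against 0.71 to 0.74).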

How the results depend on the processing

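Each gene had 27 alternatives, which use the same arrays and are not independent of each other. For the 7 genes with 1 probe, the means over probes returned the main difference. The mean of the Soat1 probes on chromosome 1 concerned Soat1 alone but is counted for each gene. The call of Msr1, Olr1, Abca1, Abcg1, Soat1 and Plin2 held in 25 of 27, Cd36 in 24 and Pltp in 14, and Nr1h3 and Scarb1 passed in 0. The deposited log2 table is a mean of both channels, so its sizes and calls do not compare with those of log2 ratios. The deposited log2 table, by its own columns, reversed Msr1 (-1.27), Olr1 (-1.82), Cd36 (0.33), Abca1 (-0.16), Abcg1 (-0.35), Soat1 (-0.27), Plin2 (-0.34), Pltp (0.37) and Scarb1 (0.10), with 0 of the 10 genes, 2 pathway genes and 13 probes past the threshold; its values are those of the arrays with the groups exchanged. The exact Wilcoxon test left 0 of the 10 genes, 0 pathway genes and 0 probes past the threshold, with differences as in limma (Msr1 2.10, Olr1 1.32, Cd36 -0.51, Abca1 0.48, Abcg1 0.84, Soat1 0.73, Plin2 0.80, Pltp -0.37) and adjusted p = 0.115 for 7 genes and 0.165 for Pltp. With scaling between arrays Cd36 (-0.34) and Pltp (-0.25) no longer passed. Pltp also did not pass with an offset of 10 (-0.36), red alone (-0.44) or a threshold of 0.01 (-0.37), though its difference was not smaller in the last 2. With 1 array left out, Pltp ran from -0.43 to -0.32, Nr1h3 from -0.09 to 0.12 and Scarb1 from -0.0536 to 0.0496. Nr1h3, near 0, was below it with median centring (-0.11), the scanner software ratio (-0.0118), red alone (-0.0909) and red with quantile normalization (-0.0946), and without room air 4 (-0.085) or 5 (-0.007) or smoke 1 (-0.023), 2 (-0.040), 3 (-0.026) or 5 (-0.019). Scarb1 was above 0 with scaling between arrays (0.0113) and without room air 1 (0.0496) or smoke 5 (0.005). Pathway genes past the threshold numbered 12 with median centring and 12 at a threshold of 0.01. Probes past it numbered 1434 with median centring, 1759 with red alone, 1428 at 0.01 and 5019 with the slide as a block. The cause of these shifts was not tested. The precision of each difference is limited by 5 arrays per group. Dim green signal limits the log2 difference of Olr1 (well above background in green on 6 of 10 arrays) and, among other called genes named, of Wfdc21 (4), Mrc1 and Cyp7b1 (2 each) and Mmp8, Camp and Il7r (0 each).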
